A study of Homo sapiens with 6 samples.

Results

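The response of a Twist-expressing cell line to the small molecule Cmp302 was set against the response of its control line, gene by gene. For each gene the log2 change from the DMSO array to a Cmp302 array was taken in each line, and the control-line change was subtracted from the Twist-line change. This value is called the line difference, and a positive value means a higher response in the Twist line. A gene was described as differing between the lines if its line difference was at least 1 log2 unit, which is 2-fold, in the same direction at both Cmp302 levels. Only genes above the median signal of each array on all 6 arrays were used. Of 19775 genes on the array, 10775 met that condition and 1699 of them differed between the lines at both levels.

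Both lines derive from HMLE cells, immortalised human mammary epithelial cells. The control line carried a pBabe-shGFP retrovirus and the Twist line a pBabe-Twist retrovirus, so the lines also differ in the kind of insert, a hairpin against GFP in one and a coding insert in the other. Each line was given DMSO, the solvent, or the compound with the code name Cmp302, at levels that the titles call 5 µM and 10 µM. There was 1 Affymetrix U133 Plus array for each of the 6 groups. The treatment protocol gives 6 h for all groups, but other labels of the same arrays name 2 µM with times of 4 h and 8 h, so the step between the levels cannot be told apart as one of dose or of time. The 5 µM and 10 µM line differences share the DMSO array of each line, and agreement between them is no replicate check. With 1 array per group no value has an error from repeats, and precision is limited by the number of arrays.

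Twist drives the epithelial-mesenchymal transition (EMT), in which epithelial cells lose their junctions and take on a migratory form. Cells that meet unfolded protein in the endoplasmic reticulum (ER), or a shortage of amino acids, phosphorylate the initiation factor eIF2-alpha. This lowers protein synthesis overall while allowing translation of the transcription factor ATF4. ATF4 and its partner CHOP then switch on genes for amino acid import and synthesis, tRNA charging, redox control and, if stress lasts, cell death. Other arms of the unfolded protein response, led by ATF6 and IRE1, raise ER chaperones and the machinery that removes misfolded proteins.

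The markers of line identity read as labelled. CDH1, EPCAM, ESRP1 and KRT5 were above the array median on the 3 control-line arrays and on 0 of the Twist-line arrays, and PRRX1 was above it on the 3 Twist-line arrays alone. The mean log2 level of the 7 epithelial markers was 12.67 to 12.99 over the control arrays and 4.02 to 4.14 over the Twist arrays. TWIST1 read 10.70, 10.51 and 10.48 on the control arrays and 11.57, 11.96 and 11.35 on the Twist arrays in the order DMSO, 5 µM and 10 µM, and its line differences were 0.57 and -0.01. That probe set would miss a viral cDNA without the probed stretch, so it checks the labels weakly. Among 4 markers each of blood, endothelial and fat cells, 3 of each were never above the array median. FABP4 and PECAM1 were above it on all 6 arrays, and CD14, a blood marker, on 4. One sign of RNA quality moved with the line difference, namely how much brighter GAPDH and ACTB read at the 3' end than in the middle of the transcript. In log2 units this contrast was 0.28, 0.45 and 0.84 on the control arrays and 0.96, 0.36 and 0.45 on the Twist arrays, so its own line difference was -0.77 at 5 µM and -1.06 at 10 µM. Its part in the results was not tested, and quality-matched values are given beside them. To obtain these, a slope on the contrast was fitted for each gene from the 3 control arrays, and what that slope predicts for the Twist arrays was taken off their response. That slope also holds any response of the control line to Cmp302. The control response was left as measured. The change of the contrast in the control line, 0.17 at 5 µM and 0.555 at 10 µM, thus stayed in the quality-matched line differences.

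The Twist line had the higher response for 864 genes and the lower response for 835, which is 8.02% and 7.75% of the genes tested. These genes came mostly from movement in the Twist line. Among the higher ones, the median response was 1.01 at 5 µM and 1.15 at 10 µM in the Twist line, against -0.28 and -0.40 in the control line. Among the lower ones the medians were -1.04 and -1.23 in the Twist line and 0.24 and 0.37 in the control line. Averaged over both levels, 528 of the higher and 574 of the lower genes passed 2-fold in the Twist line and stayed under it in the control line. For 336 and 256, respectively, neither line passed 2-fold by itself, and the difference arose from smaller movements in opposite directions. The control line passed 2-fold without the Twist line in 0 of the higher and 2 of the lower genes. At single levels the line difference passed 2-fold in 964 genes upward (8.95%) and 920 downward (8.54%) at 5 µM and in 1592 (14.8%) and 1445 (13.4%) at 10 µM. The Twist line by itself passed 2-fold upward in 463 genes (4.3%) and downward in 528 (4.9%) at 5 µM, while the control line did so in 4 and 2 genes (0.0371% and 0.0186%). At 10 µM these numbers were 876 (8.13%) and 896 (8.32%) in the Twist line and 21 (0.195%) and 17 (0.158%) in the control line.

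**Figure D1:**
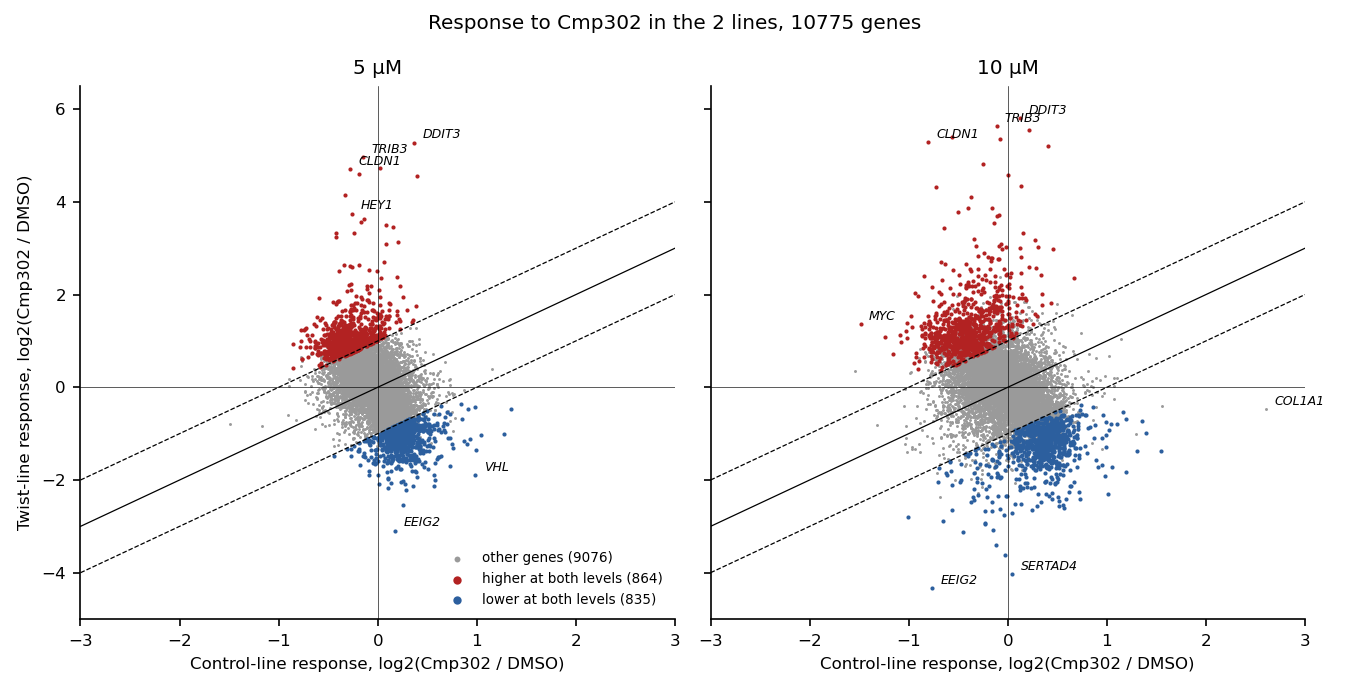
Each point is 1 of 10775 genes, with its control-line response to Cmp302 on the x axis and its Twist-line response on the y axis, both as log2 ratios to DMSO, at 5 µM (left) and 10 µM (right). The solid line marks equal responses and the dashed lines a 2-fold line difference, and the red (864) and blue (835) genes lie outside the dashed lines at both levels, spread far more along the Twist axis than along the control axis.

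The spread over all tested genes shows the same imbalance. The SD of the Twist-line response was 0.62 at 5 µM and 0.77 at 10 µM, against 0.23 and 0.32 in the control line. Across genes, which are not independent replicates and share the 2 DMSO arrays, the responses of the 2 lines ran in opposite directions, with Pearson's r of -0.47 and -0.41. The control response was negative at both levels in 765 of the 864 higher genes and positive at both in 731 of the 835 lower genes. It is subtracted in the line difference that chose these genes, so the choice itself favours these signs. Where the control line stayed within 0.25 log2 units of DMSO at both levels, 142 genes were higher and 138 lower, which is 2.79% and 2.71% of the 5088 tested genes with so flat a control response. The line difference was wider at 10 µM than at 5 µM for 87.7% of the higher and 84.0% of the lower genes.

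A model over all arrays, with the 2 Cmp302 arrays of each line standing in for repeats, was fitted with limma. Its line by treatment term was called for 1917 genes as higher (17.8%) and 2058 as lower (19.1%), 36.9% in all, at 0.05 after Benjamini-Hochberg adjustment. That spread is the gap between levels, and the DMSO arrays carry none, so these p-values are too small. The model uses the contrast that chose the genes and lends them no support. Its counts are given for the gene lists and for all genes, and its calls for named genes in the closing section, as descriptions.

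Stress genes downstream of ATF4 and CHOP held many of the widest line differences. Of 21 tested genes on this list, 11 were higher at both levels and 0 were lower, against 8.02% and 7.75% of all genes, and the median line difference was 1.27 at 5 µM and 1.28 at 10 µM (all genes 0.03 and 0.04). TRIB3, a pseudokinase that dampens AKT signalling and ATF4 itself, read 8.21, 8.06 and 8.09 on the control arrays and 6.56, 11.52 and 12.20 on the Twist arrays. It went from the lower line under DMSO to the higher line under Cmp302, with line differences of 5.10 and 5.76, or 34.4-fold and 54.0-fold. DDIT3, the gene for CHOP, read 5.26, 5.62 and 5.38 on the control arrays and 6.16, 11.44 and 11.96 on the Twist arrays, a line difference of 4.91 and 5.68. SESN2, a sestrin that restrains mTORC1 when leucine is short, read 6.23, 6.25 and 6.63 against 5.47, 10.21 and 10.67. Its line differences of 4.71 and 4.80 hardly widened between levels, and its other probe set gave 3.13 and 3.88. ATF3, a stress-induced repressor, read 4.62, 5.01 and 4.83 against 5.55, 10.10 and 11.09 (4.15 and 5.33). CHAC1, an enzyme that breaks down glutathione, read 4.15, 4.01 and 3.89 against 3.81, 7.45 and 8.62, so that it lay near the array median everywhere except on the treated Twist arrays.

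Other genes of this list formed a graded series. PPP1R15A, which encodes the GADD34 subunit that brings phosphatase to eIF2-alpha, had line differences of 3.01 and 3.81, NUPR1, a stress-induced chromatin protein, 2.88 and 3.38, and GDF15, a secreted stress cytokine, 2.25 and 3.04. ASNS, asparagine synthetase, read 11.91, 11.72 and 11.66 on the control arrays and 10.12, 12.75 and 13.02 on the Twist arrays (2.81 and 3.15). ATF4 itself had smaller differences of 1.27 and 1.28, with control signals of 13.30 to 13.50 and a Twist DMSO signal of 12.68. Under the threshold at 1 level or both were CEBPB (0.93 and 1.10), CEBPG (0.77 and 0.99, with a mean of 2.65 on its other probe set), DDIT4 (1.12 and 0.97) and TXNIP (0.31 and 1.05). VEGFA had -0.47 and -0.67 on its brightest of 4 probe sets, with means up to 1.75 on the others. XPOT had -0.30 and -0.41, with a mean of 0.58 on its other probe set. Quality-matched, 12 of the 21 were past 2-fold at both levels and the medians were 1.11 and 1.15. The limma term was called for 15 of the 21 as higher and 0 as lower.

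**Figure D2:**
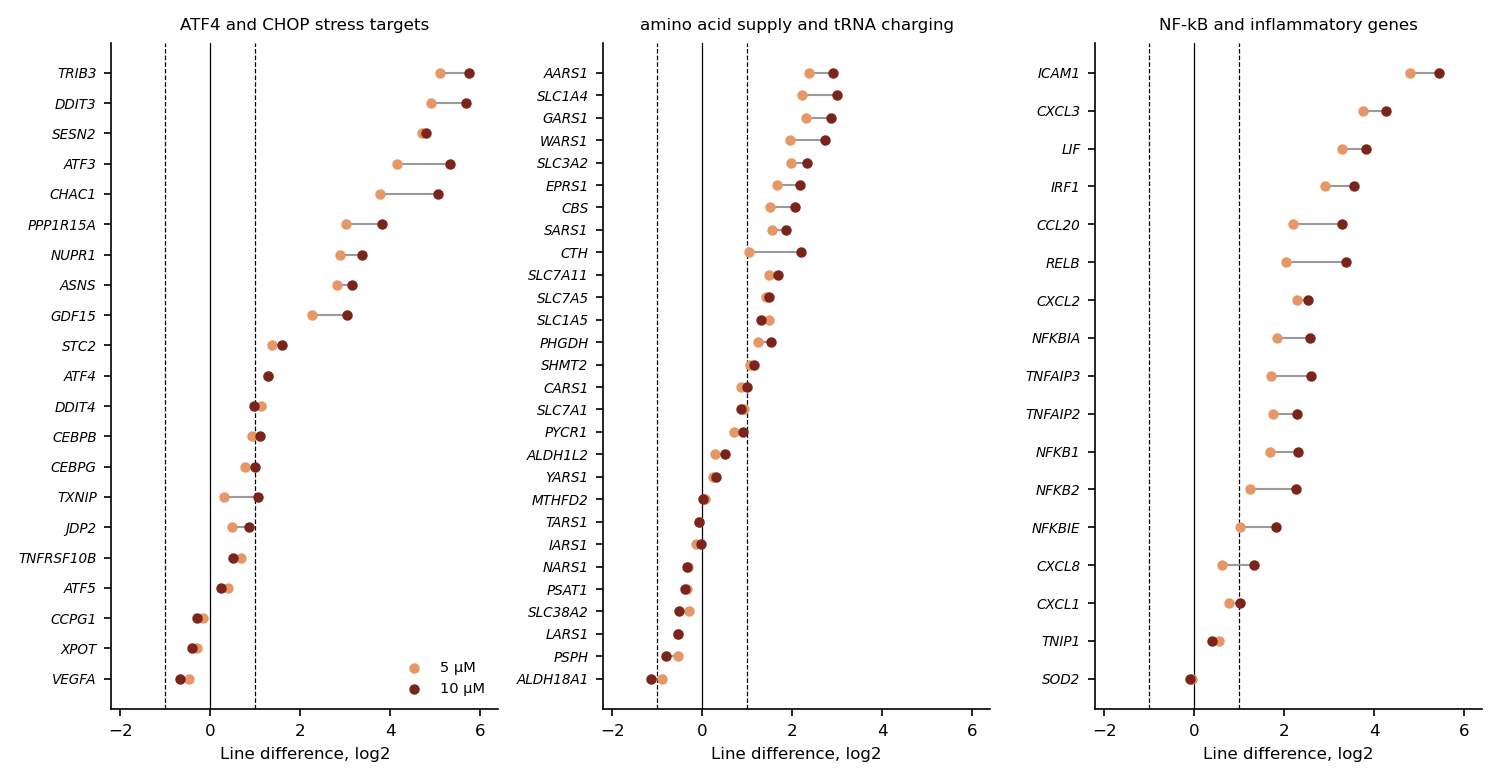
Line difference in log2 units at 5 µM (light) and 10 µM (dark) for every tested gene of 3 lists, sorted by mean, with dashed lines at 2-fold. TRIB3, DDIT3, SESN2, ATF3 and CHAC1 lead the ATF4 and CHOP list, and ICAM1 and CXCL3 the NF-kB list, while several amino acid genes lie at or below 0.

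Since so many ATF4 targets stood together, the promoters of the 60 genes with the widest higher response were searched for response elements in the 250 bases before each RefSeq start (GRCh38.p14, both strands). Of these genes, 45 had at least 1 window, 63 windows in all. The CARE motif TGATGNAA, bound by ATF4 with a C/EBP partner, was in 7 of 63 windows (11.1%), against 1.63% of windows of tested genes, 2.82% of windows of all higher genes, 1.98% of lower genes and 3.14% of all 35116 windows. The CRE motif TGACGTCA, bound by CREB and ATF factors, was in 3.17% against 2.57%. The 60 genes were picked by their line difference, so this is a description without a test. The 5 stretches printed here, each with 25 bases on either side of the match in capitals, belong to genes whose values are given above or below. AARS1 is alanyl-tRNA synthetase (chr16:70289661-70289718, minus strand), ASNS lies at chr7:97872444-97872501 (minus strand), ATF3 at chr1:212565191-212565248 (plus strand), CHAC1 at chr15:40953237-40953294 (plus strand) and HERPUD1 at chr16:56931941-56931998 (plus strand). In AARS1, CHAC1 and HERPUD1 the motif is read on the opposite strand, and in those 3 genes the matched letters are identical.
AARS1: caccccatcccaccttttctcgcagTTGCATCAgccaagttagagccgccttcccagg
ASNS: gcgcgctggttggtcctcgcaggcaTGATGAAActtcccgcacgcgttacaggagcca
ATF3: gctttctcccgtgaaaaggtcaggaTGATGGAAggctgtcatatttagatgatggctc
CHAC1: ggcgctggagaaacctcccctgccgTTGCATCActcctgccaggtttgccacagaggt
HERPUD1: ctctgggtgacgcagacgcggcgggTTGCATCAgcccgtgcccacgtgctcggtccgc

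Genes of amino acid supply and tRNA charging ranged from wide line differences to values near 0. Of 28 tested genes, 14 were higher and 0 lower at both levels, against 8.02% and 7.75% of all genes. Their medians were 0.99 and 1.08 (quality-matched 0.76 and 1.05, with 13 higher). AARS1 read 10.06, 9.75 and 9.56 on the control arrays and 9.59, 11.66 and 12.01 on the Twist arrays, a line difference of 2.37 and 2.92. SLC1A4, a neutral amino acid transporter, read 7.82, 7.71 and 7.61 against 8.23, 10.35 and 11.03 (2.22 and 3.0, and as wide on its other 2 probe sets). In both genes the treated Twist arrays lay above all 3 control arrays.

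Among tRNA synthetases, GARS1 (2.30 and 2.87), WARS1 (1.95 and 2.73), EPRS1 (1.67 and 2.19) and SARS1 (1.55 and 1.85, with a mean of 0.45 on its other probe set) were higher, while NARS1 (-0.31 and -0.34), LARS1 (-0.55 and -0.54, with means up to 1.62 on its other probe sets), IARS1 (-0.15 and -0.03) and TARS1 (-0.08 and -0.07) were not. CARS1 (0.86 and 1.01) lay just under the threshold on its brightest probe set and reached a mean of 2.97 on another. Over all 17 cytosolic synthetases tested, grouped by name after the values were seen, 6 were higher and 0 lower (all genes 8.02% and 7.75%). Quality-matched, 6 were past 2-fold as well. SLC3A2, the shared heavy chain of several transporters, read 11.09, 10.99 and 11.22 on the control arrays and 8.92, 10.80 and 11.38 on the Twist arrays. Its Twist signal thus started far below the control signal and reached it under Cmp302. Its partners SLC7A5 (1.41 and 1.49) and SLC7A11, the cystine carrier (1.49 and 1.70), were higher as well. In serine synthesis PHGDH had 1.24 and 1.53, whereas the next enzymes PSAT1 (-0.33 and -0.38) and PSPH (-0.54 and -0.81) did not pass. For PSPH the 3 probe sets differed in sign, with means from -0.91 to 0.20. The 2 probe sets of PSAT1 disagreed, and the other one had a mean line difference of 2.57, so no value holds for the gene. The mitochondrial folate enzyme MTHFD2 was alike, with 0.07 and 0.03 on its brightest probe set and a mean of 1.93 on the other. In cysteine synthesis CBS had 1.51 and 2.06 and CTH 1.04 and 2.19, and in proline synthesis ALDH18A1 had -0.89 and -1.15, with a mean of 0.38 on its other probe set. The limma term was called for 16 of the 28 as higher and 3 as lower.

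PCK2, the mitochondrial phosphoenolpyruvate carboxykinase, lay outside the lists and had line differences of 3.67 and 4.28. It read 9.17, 8.74 and 8.66 on the control arrays and 7.71, 10.96 and 11.48 on the Twist arrays. PARAIL, read by 1 probe set, was near 4 log2 units on all 3 control arrays and on the Twist DMSO array and reached 7.68 and 7.98 on the treated Twist arrays (3.72 and 4.03).

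Among ER chaperones and folding enzymes, 9 of 23 were higher and 0 lower, against 8.02% and 7.75% of all genes. Their medians were 0.81 and 1.01 (quality-matched 0.59 and 0.91, with 7 higher). SDF2L1, which slows the aggregation of misfolded proteins in complex with an ER co-chaperone, read 8.14, 7.90 and 7.41 on the control arrays and 6.33, 9.66 and 10.65 on the Twist arrays. Its line differences of 3.56 and 5.04 were the widest of the list. DNAJB11, an ER co-chaperone of the HSP40 family, read 11.39, 11.12 and 10.72 against 10.50, 12.28 and 12.81 (2.04 and 2.98). HYOU1, an ER-resident HSP70 relative, had 2.01 and 2.52, FKBP2 1.77 and 2.48, MANF 1.39 and 1.88 and PDIA4 1.49 and 1.79, with a mean of 0.20 on the other probe set of PDIA4. HSPA5, which encodes BiP, did not pass at 5 µM on its brightest probe set (0.85 and 1.10), but the other one had a mean line difference of 2.79. HSP90B1 (0.53 and 0.86), CANX (0.13 and 0.21) and P4HB (0.18 and 0.14) did not pass, nor did CALR (-0.14 and -0.26), whose 3 probe sets ranged from a mean of -0.99 to 1.34. CRELD2, an ER protein of the cysteine-rich EGF-like family, had 2.00 and 2.29. It was the 1 higher gene with the ER stress element in its window, CCAAT followed at a fixed spacing by CCACG. That motif was in 1 of 1030 windows of higher genes (0.0971%), no more than the 0.115% of windows of tested genes. The CRELD2 stretch is printed with the match in capitals, on the strand opposite to the motif (chr22:49918529-49918597, plus strand).
CRELD2: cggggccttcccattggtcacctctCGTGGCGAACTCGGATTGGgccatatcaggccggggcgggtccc

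ER-associated degradation and stress sensors were less even. Of 17 tested genes 3 were higher and 1 was lower, against 8.02% and 7.75% of all genes, with medians of 0.59 and 0.66. HERPUD1, a membrane scaffold of the degradation complex, read 12.40, 12.43 and 12.36 on the control arrays and 11.15, 13.51 and 13.70 on the Twist arrays (2.32 and 2.58). ERN1, the sensor IRE1, had 1.43 and 2.44, and OS9, a lectin that recognises misfolded glycoproteins, 1.2 and 1.16, with a mean of -0.53 on its other probe set. EDEM3, a mannosidase of the same pathway, went the other way at -1.52 and -2.23, or -0.93 and -1.73 quality-matched. EIF2AK3, the sensor PERK (-0.63 and -0.20), and XBP1 (0.20 and 0.15) did not pass.

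NF-kB targets and inflammatory genes were the list with the largest share of higher genes, 13 of 17 with 0 lower. Of all tested genes 8.02% were higher and 7.75% lower, and the list medians were 1.76 and 2.52. NF-kB factors are held in the cytoplasm by inhibitors and, once freed, drive genes for adhesion molecules, cytokines and chemokines, together with their own inhibitors. Ligands and adhesion molecules led the list. ICAM1, an adhesion molecule for leukocytes, read 9.0, 8.81 and 8.92 on the control arrays and 4.84, 9.45 and 10.20 on the Twist arrays. From a start far below the control line it passed that line at both levels, with line differences of 4.79 and 5.44 (2.92 and 3.92 on its other probe set). CXCL3, a neutrophil-attracting chemokine, read 9.70, 9.27 and 9.29 against 7.54, 10.88 and 11.41 (3.76 and 4.28), and its paralogue CXCL2 had 2.28 and 2.52. LIF, a cytokine of the IL-6 family, read 8.27, 8.42 and 8.17 against 4.95, 8.40 and 8.67 (3.29 and 3.81). CCL20, a chemokine for CCR6-bearing cells, had 2.19 and 3.29, whereas CXCL8 (0.62 and 1.32) and CXCL1 (0.77 and 1.02) did not pass at 5 µM. The other probe set of CXCL8 had a mean of 2.97.

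The subunits and inhibitors of the pathway followed. RELB read 4.76, 4.17 and 4.08 on the control arrays and 4.30, 5.75 and 7.01 on the Twist arrays (2.03 and 3.38), NFKB1 had 1.68 and 2.31 and NFKB2 1.24 and 2.25. The inhibitors NFKBIA (1.83 and 2.58), TNFAIP3 (1.71 and 2.60) and NFKBIE (1.01 and 1.82) were higher, while TNIP1 (0.56 and 0.40) and SOD2 (-0.06 and -0.09) did not pass. IRF1, a transcription factor shared with the interferon response, had 2.90 and 3.54. Quality-matched, 12 of the 17 were past 2-fold at both levels with medians of 1.41 and 2.22, and limma called 15 as higher. The kappaB motif was in 13 of the 63 windows of the 60 leading genes (20.6%), against 11.8% of windows of tested genes. The motif is degenerate, and its share among all higher genes was 12%. The neighbouring genes CXCL3 (chr4:74038734-74038793) and CXCL2 (chr4:74099239-74099298), both on the minus strand, are shown because they hold the same match, in capitals, in nearly the same flanks.
CXCL3: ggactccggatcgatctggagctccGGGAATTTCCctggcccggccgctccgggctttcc
CXCL2: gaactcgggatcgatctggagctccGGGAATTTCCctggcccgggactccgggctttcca

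Interferon-stimulated genes restrict viruses. Of 13 tested 3 were higher and 0 lower, against 8.02% and 7.75% of all genes, with medians of 0.40 and 0.94. OASL, a relative of the oligoadenylate synthetases, read 8.09, 7.75 and 7.52 on the control arrays and 6.41, 10.56 and 11.80 on the Twist arrays. Its line differences were 4.48 and 5.96, with 0.05 SD between its 2 probe sets. IFIT2, a protein that binds foreign RNA complexes, read 10.62, 10.70 and 10.62 against 8.17, 11.68 and 12.74 (3.42 and 4.57), with a flat control line. IFIT1 read 9.78, 9.84 and 9.91 against 6.42, 9.13 and 10.76 (2.64 and 4.21), so that it was still below the control line at 5 µM and above it at 10 µM. On their brightest probe sets IFIT3 (0.89 and 2.44) and ISG15 (0.97 and 1.72) passed at 10 µM alone. The other probe set of IFIT3 had a mean of 2.84. IRF9 (0.06 and -0.48) and IFI6 (-0.44 and -0.07) did not pass. RIGI, a sensor of viral RNA, had 0.00 and 0.34 on its brightest of 3 probe sets and a mean of 2.09 on another. With the probe sets of each gene summarised by their median, 5 members of the list passed at both levels. The interferon-stimulated response element was in 3.17% of the 63 windows of the leading genes and 2.36% of windows of tested genes.

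**Figure D3:**
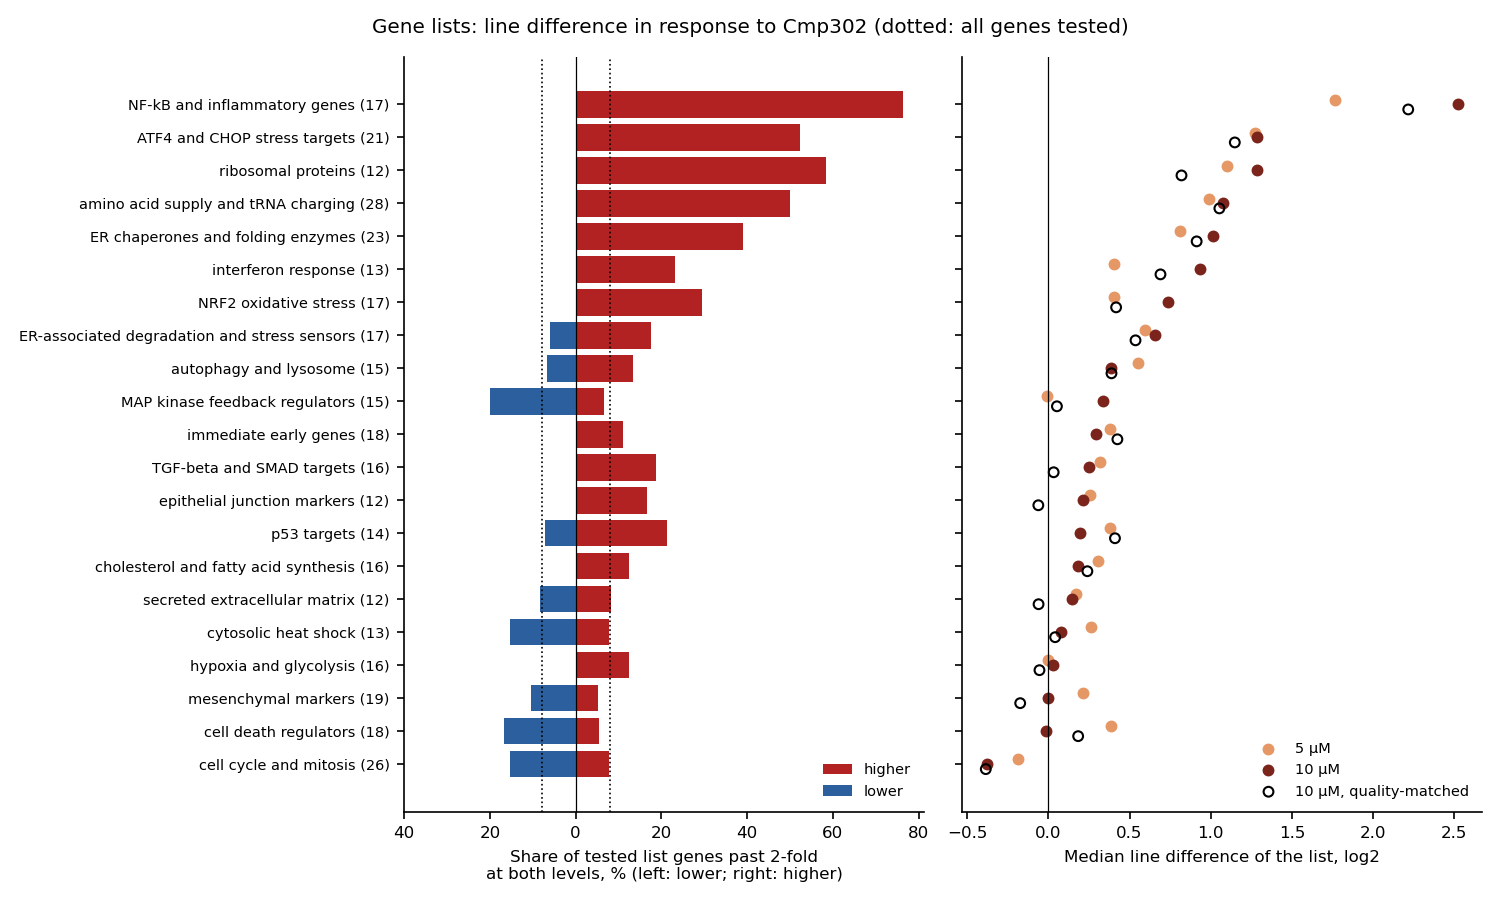
For the lists with at least 10 tested genes (number in brackets), the left panel gives the percent of genes past a 2-fold line difference at both levels, higher to the right and lower to the left, with dotted lines at the 8.02% and 7.75% of all genes tested. The right panel gives the median line difference in log2 units at 5 µM, at 10 µM and at 10 µM quality-matched, where the NF-kB list lies furthest to the right, the ATF4 and ribosomal lists share a 10 µM median of 1.28, and cell cycle genes lie furthest to the left.

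Immediate early genes respond to growth signals within minutes. Of 18 tested, 2 were higher and 0 lower, against 8.02% and 7.75% of all genes. The medians were 0.38 and 0.29, and 0 were past 2-fold quality-matched. MYC read 11.64, 11.16 and 10.15 on the control arrays and 9.28, 10.47 and 10.65 on the Twist arrays. Its line difference of 1.66 and 2.86 was made by both lines, with control responses of -0.48 and -1.48, and quality-matched it was 0.07 and 1.5. EGR1 had 1.10 and 1.33. Some genes of the list did not pass on the brightest probe set but were wider on another. Means there reached 3.07 for KLF6, 2.13 for JUN, 1.68 for KLF4 and CCN1 and 1.25 for FOSL2. The lowest means were -0.08 for JUN and -0.14 for FOSL2. Among 15 regulators that feed back on MAP kinases, 1 was higher and 3 were lower. DUSP16, a phosphatase for JNK and p38, had 1.46 and 1.89, while its other 2 probe sets gave 2.35 and 2.52, and 0.02 and 0.24. The RAS pathway inhibitors SPRED1 (-1.40 and -1.75) and SPRED2 (-1.15 and -1.2) and the phosphatase DUSP14 (-1.07 and -1.26) were lower, and for SPRED1 the 3 probe sets differed in sign.

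NRF2 controls antioxidant and iron-handling genes. Of the 17 tested on its list 5 were higher and 0 lower, against 8.02% and 7.75% of all genes. The medians were 0.40 and 0.74. Quality-matched, 2 were higher. HMOX1, heme oxygenase 1, read 4.40, 4.31 and 4.70 on the control arrays and 5.32, 7.85 and 8.35 on the Twist arrays, a line difference of 2.61 and 2.73. FTL, the ferritin light chain, had 1.54 and 2.12 (0.65 and 1.37 quality-matched), AKR1C1 1.30 and 1.51 and KEAP1, the inhibitor of NRF2, 1.24 and 1.07. The glutathione synthesis genes GCLC (-0.96 and -0.96) and GCLM (-0.82 and -1.06) were negative without passing at both levels, and NQO1 had -0.29 and -0.52, with means up to 1.19 on its other probe sets. Among cytosolic heat shock genes HSPB1 had 1.98 and 2.23 with a control response of -0.73 and -1.02, while HSPA4L (-1.65 and -1.06) and DNAJB4 (-1.30 and -1.35) were lower, 1 higher and 2 lower of 13. DNAJB1 (0.51 and 0.975) did not pass on its brightest probe set, but its other one had a mean of 2.68. Probe set means ranged from -0.46 to 1.49 for HSP90AB1 and from -0.39 to 1.18 for HSPD1. ZFAND2A, a heat-shock-induced partner of the proteasome outside the lists, read 10.35, 10.00 and 9.70 against 8.96, 11.60 and 12.40, with 2.98 and 4.08. Of 5 aryl hydrocarbon receptor genes 0 passed. CYP1B1, a classical target of that receptor, read 9.58, 10.73 and 11.13 on the control arrays and 9.95, 10.35 and 9.55 on the Twist arrays. It was 1 of the few genes past 2-fold in the control line, and its line differences of -0.76 and -1.96 fell short at 5 µM. Its direction turned between probe sets, with 0.38 and -0.92 on the second and 1.76 and 0.30 on the third. ARNT, the receptor's partner, had -0.48 and -0.79, and its 4 probe sets also differed in sign.

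Among epithelial markers, 2 of 12 tested junction genes, 1 of 6 luminal genes and 0 of 3 basal genes were higher at both levels, and 0 were lower. Of all tested genes 8.02% were higher and 7.75% lower. Genes such as CDH1 and KRT5, below the median in the Twist line, could not enter. CLDN1, the tight junction protein claudin-1, read 10.63, 10.35 and 9.82 on the control arrays and 5.84, 10.55 and 11.12 on the Twist arrays. The line difference of 4.98 and 6.08 was the widest of all at 10 µM, and both treated Twist arrays lay above the control array at the same level. PKP1, a desmosomal plaque protein, had 1.56 and 1.17, and the other 10 tested junction genes did not pass, among them DSP (-0.39 and -0.53) and OCLN (0.58 and 0.77). Among keratin and luminal markers KRT18 read 13.37, 13.13 and 12.63 against 8.26, 9.26 and 9.36 (1.23 and 1.83, or 0.44 and 1.16 quality-matched). CD24 had -0.56 and -1.09 on its brightest of 5 probe sets. Others of CD24 passed 2-fold lower at both levels, at -1.61 and -2.795 and at -1.59 and -2.555, and the rest did not. KRT18 stayed far below the control line throughout. The basal markers ITGA6 (-0.77 and -1.27) and SFN (-0.67 and -0.84) did not pass, and the other 2 probe sets of SFN went the other way, at 0.51 and 0.69 and at 0.98 and 1.16.

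Of 19 mesenchymal markers 1 was higher and 2 were lower, against 8.02% and 7.75% of all genes, with medians of 0.21 and -0.01. PDGFRB, the platelet-derived growth factor receptor beta, read 4.00, 4.04 and 4.06 on the control arrays and 9.03, 7.70 and 7.55 on the Twist arrays, a line difference of -1.38 and -1.54 at a level near the array median in the control line. ZEB2, an EMT repressor of CDH1, read 4.51, 5.14 and 5.13 against 11.46, 11.06 and 10.68 (-1.04 and -1.41, or -0.48 and -0.93 quality-matched). VIM, encoding vimentin, was the higher one (1.13 and 1.26, or 0.47 and 0.70 quality-matched), and ZEB1 (-0.11 and -0.82), CDH2 (0.08 and 0.12) and FN1 (0.03 and 0.01) did not pass. The 7 probe sets of FN1 ranged from a mean of -1.31 to 1.30. Among 12 matrix genes LAMB3 was higher (1.12 and 1.01) and THBS1 lower (-1.62 and -2.42), with 7 probe sets of THBS1 that differed in sign. COL1A1 read 8.70, 8.82 and 11.30 on the control arrays and 13.63, 13.29 and 13.15 on the Twist arrays, so its value of -3.08 at 10 µM came from 1 control array, and at 5 µM it was -0.47. Its 3 probe sets ranged from a mean of -1.78 to 0.19.

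Of 16 TGF-beta and SMAD genes 3 were higher and 0 lower, against 8.02% and 7.75% of all genes. INHBA, a subunit of activin, read 12.42, 12.25 and 12.41 against 9.39, 11.34 and 11.58, a line difference of 2.11 and 2.19 with a flat control line. TGFBI had 1.43 and 1.71 and ID3 1.08 and 1.25, while SMAD7 (-0.36 and 0.17) and TGFBR1 (-0.93 and -1.21) did not pass. Among 7 Notch genes HEY1 alone passed. HEY1, a repressor switched on by Notch, read 5.92, 5.66 and 5.54 on the control arrays and 7.36, 11.11 and 11.47 on the Twist arrays (4.00 and 4.49, 4.24 and 4.55 as means on its 2 probe sets). The receptors NOTCH3 (-0.31 and -1.25) and NOTCH2 (-0.48 and -1.06) and the ligand JAG1 (0.12 and -0.17) did not pass at 5 µM, nor did the target HEYL (0.01 and -0.04). The 4 probe sets of NOTCH2 and of JAG1 differed in sign.

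Beyond the lists stood 22 of the 53 genes whose higher response passed 4-fold at both levels, and all 53 stayed past 2-fold quality-matched. Some were named for this description after their values were seen. TSLP, an epithelial cytokine of allergic inflammation, read 4.74, 4.48 and 4.56 on the control arrays and 7.34, 9.93 and 10.07 on the Twist arrays, above the control line throughout (2.84 and 2.90). SDR16C5, a retinol dehydrogenase, read 10.10, 10.30 and 10.25 against 6.55, 9.68 and 9.87 (2.92 and 3.17), which brought it close to the control line without reaching it. ITPRIP, which modulates the inositol trisphosphate receptor, had 2.50 and 3.15 with an SD of 1.17 between its probe sets, JARID2, a cofactor of the Polycomb repressor, 2.37 and 2.69 with an SD of 1.15, MXD1, an antagonist of MYC, 2.08 and 2.85 and UPP1, uridine phosphorylase, 2.26 and 2.58.

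Of the 33 lower genes past 4-fold at both levels, 2 were on a gene list and 30 stayed past 2-fold quality-matched. The lists were chosen with earlier results of these data known, so the count on a list is no result about the lower genes. For 8 of the 33, other probe sets of the gene went another way. EEIG2 read 8.52, 8.69 and 7.75 on the control arrays and 9.91, 6.82 and 5.57 on the Twist arrays. It went from above to below the control line, with line differences of -3.27 and -3.58. E2F8, a repressor of the E2F family that acts late in S phase, read 9.17, 9.73 and 9.01 against 9.76, 7.64 and 6.67 (-2.69 and -2.94, and -3.02 and -3.21 quality-matched). PTGR2, a prostaglandin reductase, read 8.39, 8.64 and 8.15 against 8.70, 6.16 and 5.78 (-2.80 and -2.68). SERTAD4 read 9.13, 9.36 and 9.17 against 10.66, 8.62 and 6.63, and its line difference widened from -2.28 to -4.08, on 3 probe sets with an SD of 0.52. In these 4 genes the treated Twist arrays were the lowest of the 6.

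APAF1, which assembles the apoptosome around cytochrome c, had equal DMSO signals in the lines. It read 11.12, 11.47 and 11.04 on the control arrays and 11.13, 9.01 and 8.50 on the Twist arrays (-2.48 and -2.56). VHL, the recognition subunit of the ligase for HIF, read 5.80, 6.78 and 6.77 against 8.73, 6.84 and 6.82. The lines met at both levels from a DMSO gap, with control responses of 0.98 at each level, so -2.88 and -2.88 were shared between them. ZC3HAV1L (-2.58 and -3.0), RP2 (-2.34 and -2.44), LRIG3 (-2.47 and -2.42), MSS51 (-2.42 and -2.42) and a probe set annotated to MIR3682 (-2.29 and -2.25) completed the leading genes together with ATXN7L3-AS1. That antisense gene read 6.45, 7.44 and 7.99 against 5.97, 4.62 and 4.59, with control responses of 0.99 and 1.55, and its -2.35 and -2.92 became -0.81 and -1.62 quality-matched. COL8A1, a short-chain collagen, and PCDH18, a protocadherin, were read near 5 log2 units in the control line. COL8A1 went from 10.32 to 8.34 and 6.92 in the Twist line (-2.09 and -3.27) and PCDH18 from 8.97 to 7.01 and 6.21 (-2.07 and -2.72).

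**Figure D4:**
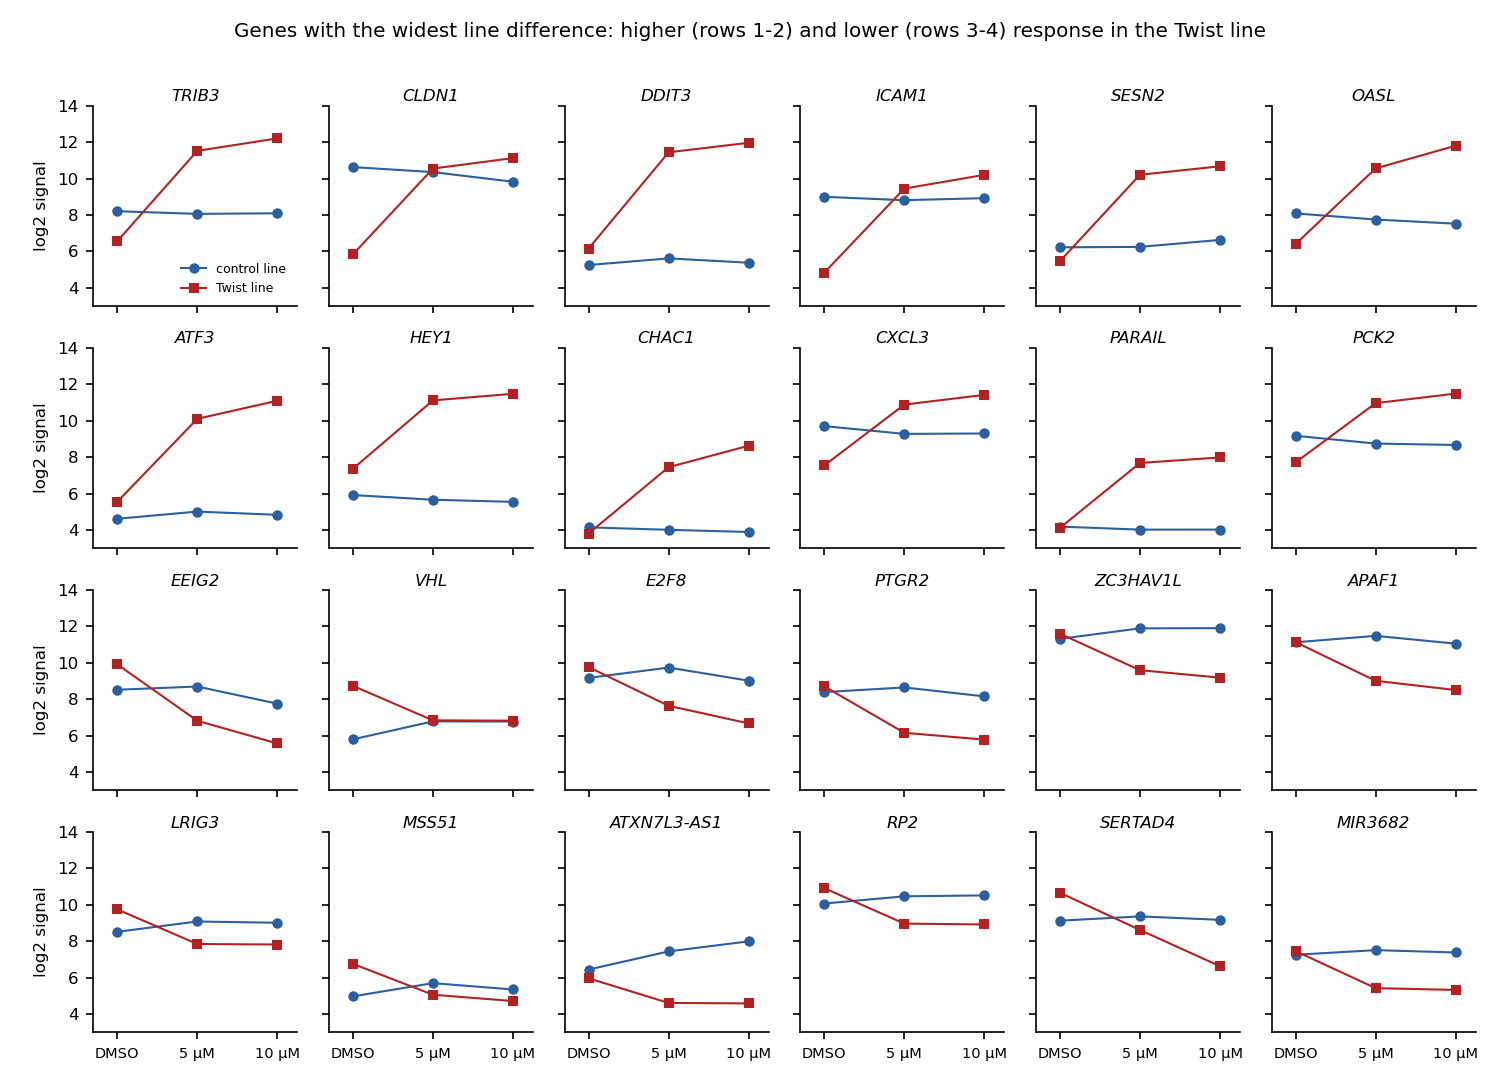
Log2 signal on each array for the 12 genes with the widest higher (rows 1 and 2) and the 12 with the widest lower (rows 3 and 4) response in the Twist line, control line in blue and Twist line in red, over DMSO, 5 µM and 10 µM. The control line stays nearly level in most panels, while the Twist line moves at 5 µM and in most panels moves less from there to 10 µM.

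Among lists with at least 10 tested genes, cell cycle genes had the lowest medians, -0.19 and -0.38. Of these 26 genes 4 were lower and 2 higher, against 7.75% and 8.02% of all genes. Besides E2F8, the lower ones were the cyclins CCNE2 (-1.41 and -1.94) and CCNA2 (-1.10 and -1.5) and the mitotic kinesin KIF20A (-1.02 and -1.34). The higher ones were CDC20, an activator of the anaphase-promoting complex (1.45 and 1.64), and MCM2, a subunit of the replicative helicase (1.23 and 1.05), and quality-matched 0 were higher and 3 lower. Cell death regulators had 3 of 18 lower and 1 higher, against the same shares of all genes. CASP8, the initiator caspase of death receptors, read 9.73, 9.92 and 9.25 against 9.70, 8.16 and 8.04 (-1.74 and -1.19), XIAP, an inhibitor of caspases, had -1.01 and -1.22, and CASP4 was higher (1.06 and 1.48). Probe sets differed in sign for XIAP (means of -1.24 to 1.01) and CASP4 (-1.07 and 1.27). Of p53 targets, 3 of 14 were higher and 1 lower. XPC, a DNA damage sensor, read 6.91, 6.63 and 6.57 against 8.18, 9.44 and 9.73 (1.53 and 1.89), while RRM2B, a ribonucleotide reductase subunit, had -1.14 and -1.52 and CDKN1A 0.71 and 0.56.

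Among the remaining lists, autophagy and lysosome genes had 2 of 15 higher and 1 lower, against 8.02% and 7.75% of all genes. SQSTM1, the cargo receptor p62, had 1.27 at both levels with a mean of -0.65 on another probe set, LAMP2 had -1.29 and -1.53, and ATG5 had 1.11 and 1.56 on its brightest probe set but -1.18 and -1.86 on another. Of 16 sterol and fatty acid genes FDPS (1.08 and 1.43) and MVD (1.31 and 1.19) were higher, and of 16 hypoxia and glycolysis genes ALDOA (1.29 and 1.74, with a mean of -0.86 on another probe set) and NDRG1 (1.03 and 1.15). Among 6 metallothioneins 0 passed, with MT1H at 0.65 at both levels and MT1X at 0.16 and 0.76. The 2 tested markers of blood, endothelial and fat cells, FABP4 (0.32 and 0.14) and PECAM1 (-0.22 and 0.14), did not pass.

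Abundant housekeeping genes were among the higher ones too, and far fewer of them were past 2-fold quality-matched. Of 12 ribosomal protein genes on the list 7 were higher and 0 lower, against 8.02% and 7.75% of all genes. The medians were 1.10 and 1.28, and 1 was past 2-fold quality-matched. RPL32 read 14.15, 13.72 and 13.31 on the control arrays and 13.05, 14.31 and 14.35 on the Twist arrays (1.68 and 2.13, or 0.83 and 1.41 quality-matched), and RPL19 had 1.62 and 1.98. By name, 22 of 58 cytosolic ribosomal genes were higher and 0 lower, and 2 were past 2-fold quality-matched. For mitochondrial ribosomal genes these numbers were 18 of 72, 1 and 3, and for proteasome subunits 9 of 33, 0 and 1. GAPDH read 13.58, 13.19 and 12.77 against 12.32, 13.66 and 13.68, a line difference of 1.72 and 2.16 on its brightest probe set. For RPL32, RPL19 and GAPDH the DMSO array was the lowest of the Twist arrays, and the control signal was lower at each level while the contrast was higher.

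Across all tested genes the line difference ran against the gene's slope on the contrast in the control line, with Pearson's r of -0.57 at 5 µM and -0.65 at 10 µM. These values share the control arrays with the line difference itself. With the Twist-line response alone, r was -0.47 and -0.39. Quality-matched, 360 genes were higher (3.34%) and 421 lower (3.91%), and 323 (37.4%) of the 864 higher and 352 (42.2%) of the 835 lower genes were among them. Only the change of the contrast in the Twist line was taken off for these counts.

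**Figure D5:**
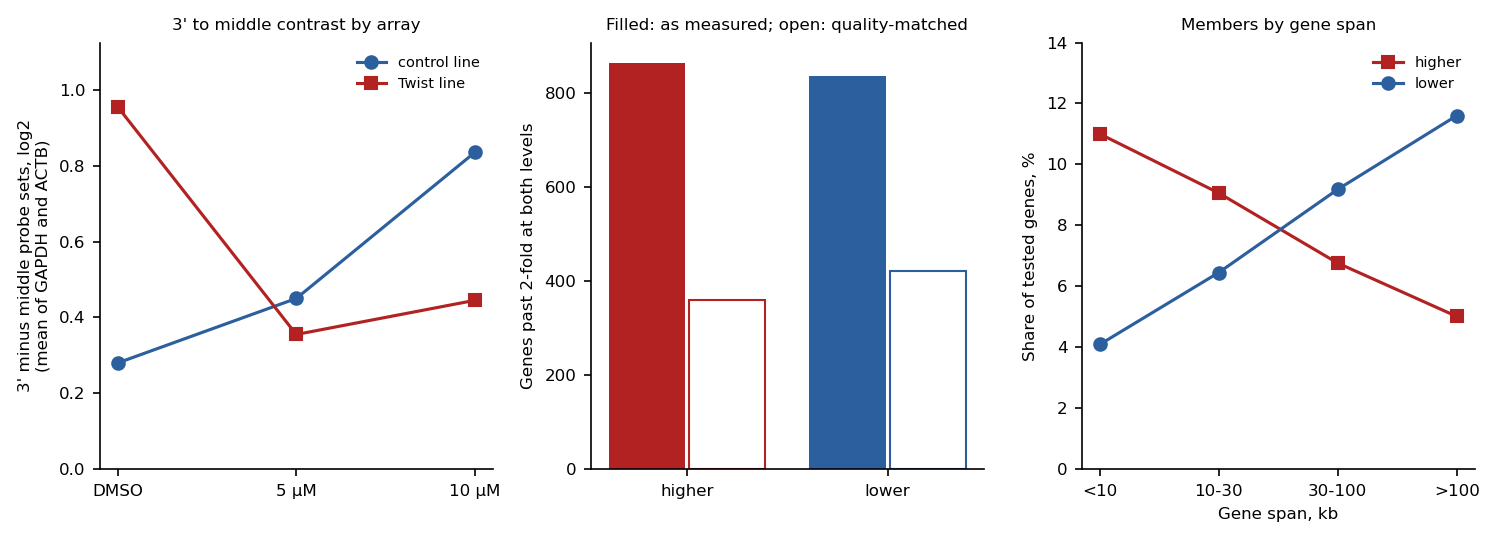
Left, the 3' minus middle contrast (log2, mean of GAPDH and ACTB) on each array, which goes from 0.28 to 0.84 in the control line and from 0.96 down to 0.36 and 0.45 in the Twist line. Middle, the number of genes with a 2-fold line difference at both levels, as measured (864 and 835) and quality-matched (360 and 421), and right, the percent of tested genes that were higher or lower by the span of the gene in kb.

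The higher and lower genes differed in gene length, a property the choice did not use. The median genomic span, from RefSeq, was 21.1 kb for the higher genes and 49.7 kb for the lower genes, against 30.2 kb for all tested genes. Of 2249 genes under 10 kb, 11.0% were higher and 4.09% lower. Of 1895 genes over 100 kb, 5.01% were higher and 11.6% lower, with the classes between in order. Long non-coding genes made up 3.24% of the higher, 5.64% of the lower and 4.1% of all tested genes. Among 337 tested ZNF zinc finger genes 39 were higher and 26 lower, and among 137 TMEM genes 3 were higher and 12 lower. Over all tested genes the shares were 8.02% higher and 7.75% lower.

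Probe sets of a gene did not always go together. Of the higher genes 392 had at least 2 probe sets above the array median on all 6 arrays, all of them went one way in 237, and all passed 2-fold at both levels in 80. For the lower genes these numbers were 510, 212 and 44. The median SD between probe sets was 0.68 and 0.84 log2 units. A value on the brightest probe set is thus not a value for every transcript of its gene.

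Where the lines stood relative to each other also switched. Under DMSO the Twist signal was above the control signal for 157 of the 864 higher genes, and this became 739 at 5 µM and 786 at 10 µM. For the lower genes it was 744 of 835 under DMSO, then 143 and 102. A gene low on the Twist DMSO array has a higher response by construction, since that array is the baseline of both levels.

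Few genes moved in the control line. Past 2-fold at either level were 41 of the tested genes, 3 of them at both, and 23 of the 41 differed between the lines at both levels, 8 higher and 15 lower. AP1S3, an adaptor subunit of clathrin-coated vesicles, read 9.84, 10.28 and 10.85 on the control arrays and 10.49, 8.83 and 8.18 on the Twist arrays (-2.11 and -3.33), moving apart in both lines. LPCAT4, a lysophospholipid acyltransferase, was lower under Cmp302 in both lines, at 7.95, 7.86 and 6.94 against 6.88, 5.08 and 4.07. Of 926 genes past 2-fold in the Twist line at both levels, the control line moved the same way at both in 84, and 55 of those 84 still passed the line difference.

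Genes below the array median on some array could not enter the comparison. Here values under a floor of 3.71 log2 units were set to it, so that a line difference resting on them is a limit. Taking the floor as the value, 13 of 278 genes above it in the mean of each line only were higher and 9 lower at both levels. HES1, the other main repressor induced by Notch, read 9.80, 9.72 and 9.43 on the control arrays. On the Twist arrays it was at the floor under DMSO and read 8.34 and 8.40 with Cmp302, a line difference of at least 4.70 and 5.05. PTGS2, cyclooxygenase 2, read 8.04, 8.12 and 7.25 against 3.72, 7.33 and 8.24. Its Twist DMSO value was under that array's median but just above the floor, so 3.52 and 5.30 are measured values that rest on a signal near the floor. NGFR, the p75 neurotrophin receptor, had at least 1.74 and 2.80 and BMP2 at least 1.52 and 1.74, both below the control line throughout. On the other side FRMD4B read 9.82, 9.91 and 10.01 against 7.05, 5.17 and the floor, a line difference of -1.98 and at most -3.53. EPHA4, an ephrin receptor, was near the floor in the control line and went from 10.94 to 9.76 and 9.54 in the Twist line. Its -1.08 and -1.21 rest on control values at or near the floor, and the true difference may be smaller in size. A further 696 genes were at the floor in the whole control line and above it in the Twist line on some array, and their line difference cannot be told.

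The threshold divided a continuum. Just inside it on the higher side were ACAD9, ATG9A and AUNIP, whose smaller line difference was 1.0, and just outside CLUHP3, DCPS and DHX38 at 0.99. On the lower side CHEK1, SH3YL1 and SMARCAD1 were just inside and ATM, BLTP1 and DLAT just outside, and the smaller value of each rounded to -1.0. CHEK1 and ATM, kinases of the DNA damage response, thus had nearly the same values on their brightest probe sets (-1.01 and -1.0 for CHEK1, -1.0 and -1.02 for ATM). Not all of their other probe sets kept this sign, with means up to 1.10 for CHEK1 and 0.45 for ATM. For CHEK1 the rest stayed negative, with means of -0.50 and -0.21.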

How the data were processed

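RNA of 6 HMLE samples was measured on Affymetrix U133 Plus arrays, 1 array per group. Per the submitters' processing notes the authors used GCOS 1.2. The scale of the deposited values is not named, and their range is that of log2 signals. Background correction and normalisation are not given in the sources used here. Of 54675 probe sets, 62 controls, 1801 with several symbols and 11721 with none were left out, and 41091 gave 19775 genes, each read by its brightest probe set. Symbols came from the platform's annotation, and spans and promoter sequence from RefSeq.

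Arrays were aligned by a constant each, which brought the median difference from the average of all arrays to 0 among brighter probe sets (offsets -0.03 to 0.01). Genes above the median of every array were kept. limma 3.58.1 in R 4.3.3, with signal trend and Benjamini-Hochberg adjustment at 0.05, had line, treatment and their product as terms and 2 residual degrees of freedom. In simulated data with 10775 genes the line by treatment term recovered 38% of steps of 1 log2 unit and 100% of steps of 2, with 14 false calls. The simulated noise had the size of the gaps between levels, since the single DMSO arrays give no error of their own. The false calls are therefore no measure of the error rate in the real data.

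The members and the 27 gene lists (515 symbols, 471 on the array, 387 tested) were chosen with earlier results of these data known. The rule for genes named in the text took the 12 widest higher and lower genes with all probe sets one way, 2 per list, 3 on each side of the threshold in each direction, and TWIST1. Other genes were named after their values were seen. Alternatives were other scalings, probe set summaries, signal limits, thresholds and levels, and the quality-matched response. A flat control response was added after seeing the data. Nothing in the labels says that arrays are of separate cultures.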

Additional observations from a re-analysis of the deposited data

Results flagged for a closer look

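A closer look was called for at 76 named genes, 73 because the line by treatment term of limma was called at an adjusted p under 0.05. Several of them, such as MT1H, SFN and ITGA6, did not reach a 2-fold line difference at both levels. That term was called for 36.9% of all genes tested and uses the contrast that chose the genes, so the calls are no independent evidence. Values are line differences averaged over both Cmp302 levels, in log2 units, positive where the Twist line had the higher response.

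Among the genes with the widest higher response, CLDN1 had 5.53, TRIB3 5.43, DDIT3 5.29, OASL 5.22, ICAM1 5.11, SESN2 4.75, ATF3 4.74, CHAC1 4.42, HEY1 4.24, CXCL3 4.02, PCK2 3.97 and PARAIL 3.87. Among the widest lower ones EEIG2 had -3.42, SERTAD4 -3.18, VHL -2.88, E2F8 -2.81, ZC3HAV1L -2.79, PTGR2 -2.74, ATXN7L3-AS1 -2.64, APAF1 -2.52, LRIG3 -2.45, MSS51 -2.42, RP2 -2.39 and MIR3682 -2.27. For VHL and ATXN7L3-AS1 the control line moved as well.

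In amino acid supply and the ER, SDF2L1 had 4.30, AARS1 2.64, SLC1A4 2.61, DNAJB11 2.51, HERPUD1 2.45 and ERN1 1.93. IFIT2 had 3.99, the immediate early genes MYC 2.26 and EGR1 1.22, and the MAP kinase regulators DUSP16 1.67 and SPRED1 -1.57. Among redox, receptor and heat shock genes HMOX1 had 2.67, FTL 1.83, CYP1B1 -1.36, HSPB1 2.11 and HSPA4L -1.36. The sterol genes FDPS and MVD had 1.25 each. XPC had 1.71, RRM2B -1.33, CCNE2 -1.67 and CASP8 -1.46.

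Among genes of cell identity and matrix, INHBA had 2.15, TGFBI 1.57, KRT18 1.53, PKP1 1.36, SFN -0.76, ITGA6 -1.02, ZEB2 -1.22, PDGFRB -1.46 and THBS1 -2.02. LAMP2 had -1.41, ATG5 1.34, ALDOA 1.51, NDRG1 1.09, MT1H 0.65, RPL32 1.91 and RPL19 1.80. At the threshold ACAD9 had 1.2, AUNIP 1.15, ATG9A, DCPS and DHX38 1.05, CHEK1, SH3YL1 and ATM -1.01, SMARCAD1 -1.03, BLTP1 -1.09 and DLAT -1.10.

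COL1A1 (-1.78), CD24 (-0.83) and ARNT (-0.63) stood out because both Cmp302 responses of one line had the opposite sign to both of the other. For CD24 the control line hardly moved, with responses of 0.025 and 0.007. The limma term was not called for these 3, with Benjamini-Hochberg adjusted p of 0.196, 0.0571 and 0.0805. For SFN, CYP1B1, ARNT, COL1A1, THBS1, SPRED1, ATG5, ALDOA, CHEK1, ATM and BLTP1 the probe sets of the gene differed in sign.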

How the results depend on the processing

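The line differences rest on 1 array per group, and DMSO was read on 1 array per line. No paired analysis was possible because each group has 1 array and no replicate numbers. Measured against 864 higher and 835 lower genes, the quality-matched response left 360 and 421, a 1.5-fold threshold gave 2112 and 2059 and a 3-fold threshold 154 and 147. The 10 µM level alone gave 1592 and 1445. A control response within 0.25 at both levels, chosen after seeing the data, left 142 and 138. The median in place of the brightest probe set gave 699 and 447, of which 504 and 306 were among the genes described, and ATG5 reversed to -0.30. Under the other scalings, signal limits and probe set filters, and with the 5 µM level alone, the counts were 582 to 964 higher and 746 to 920 lower, within 1.5 times of those given. The line by treatment term of limma, called for 1917 and 2058 genes, gave 1517 and 1064 with that median. Leaving out 1 Cmp302 array at a time gave 1862 to 2426 higher and 1966 to 2341 lower. Of the other values of named genes under the alternatives, 832 kept their side of the threshold, 66 lost the threshold and 29 reached it. A change of direction under the threshold was not counted. FABP4, for example, had 0.32 and 0.14 as measured but -0.09 and -0.215 quality-matched. The cause of these changes was not tested.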
